A study of Mus musculus with 81 samples.

Results

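The genes described here are Myc and its network partners, 10 genes of the 24391 in the count table, taken by their symbols: Myc, Mycn, Max, Mxd1, Mxd3, Mxd4, Mxi1, Mnt, Mlx and Mlxip. Of the 10, 9 had enough counts to be tested in each of the 5 RNA experiments, and Mycn had 2 counts in 1 sample and none in the others.

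MYC and MYCN are transcription factors that bind DNA as dimers with MAX, mostly at E-boxes, and activate genes of growth, ribosome synthesis and metabolism. The MXD proteins (MXD1, MXI1, MXD3 and MXD4) and MNT compete for MAX, bind the same sites and repress through SIN3 and histone deacetylases. MLX pairs with the glucose-sensing factor MLXIP (MondoA) and also with MXD1, MXD4 and MNT, which ties a second arm to the network. In T cells MYC drives the growth that follows activation, and in immature and leukaemic T cells it is known as a gene that Notch can induce.

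All samples came from a mouse hybridoma mature T cell line grown in culture, and each experiment altered the Notch pathway, in which the DNA-binding protein RBPJ represses genes until the Notch intracellular domain (NICD) joins it. In the edited-line experiment a control line was compared with lines 2-12 and 2-14, in both of which RBPJ was depleted with CRISPR, and each line gave 2 libraries. In the NICD1-ER experiment cells carried the Notch1 intracellular domain fused to an estrogen receptor domain, which 4-hydroxytamoxifen (4-OHT) activates. They received 1 uM 4-OHT for 4, 8 or 24 h, or ethanol for 24 h. Of this experiment 10 libraries in 4 groups were used, without replicate 1 of ethanol and of 24 h of 4-OHT. In the KYOT2 experiment cells were infected with GFP, with GFP-KYOT2 wild type (KYOT2 is a protein that binds RBPJ) or with GFP-KYOT2 WWAA, a mutant that fails to interact with RBPJ, with 3 libraries each. In the inhibitor experiment cells received the gamma-secretase inhibitor (GSI) DAPT at 20 ug/ml for 24 h, which blocks the cleavage that releases NICD, or DMSO, with 2 libraries each. In the BioNICD1 experiment control cells and RBPJ-depleted cells were infected with biotin-tagged NICD1 (BioNICD1, wild type) or its control (Biocontrol), with 3 libraries in each of the 4 groups. The labels do not name the edited line used there. They also do not say that libraries of a group came from separate cultures, so p-values measure the spread between these libraries, which may be technical. The labels also do not say whether each edited line is 1 clone.

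Library totals ran from 2377028 to 14244209 counts, and the smallest belonged to replicate 1 of the edited-line control. Counts of the ribosomal RNA gene Rn45s were 1.81 to 5.56% of the total in the KYOT2 libraries and 0.0534 to 0.263% in all others. A count of 3 in a library, taken as the detection limit, equals 0.211 to 1.26 CPM (counts scaled to a common library size with edgeR's TMM factors), and member levels other than Mycn were at least 8.28 CPM. Rbpj itself was at 182 and 133 CPM in the edited-line controls, at 44.2 and 31.4 CPM in line 2-12 and at 59.6 and 41.8 CPM in line 2-14. In the BioNICD1 experiment Rbpj was at 83.9 to 94.1 CPM in the 6 control libraries and at 18.7 to 27.5 CPM in the 6 depleted ones. The edited position is not given in the sources used here, so these reads check the label and not the protein. The Notch target Hey1 rose from 3.03 CPM with ethanol to 66.3 CPM at 24 h of 4-OHT (adjusted p = 1.11e-11). With BioNICD1 in control cells Hey1 went from 0.208 to 72.5 CPM (adjusted p = 1.80e-08). Hes1, another Notch target, was at 1.80 and 0.207 CPM in the edited-line controls and at 20.1 to 61.4 CPM in the edited lines (adjusted p = 0.0222 for both). In the NICD1-ER experiment Hes1 was already at 43.7 and 44.6 CPM with ethanol, and at 73.9 and 70.6 CPM at 24 h of 4-OHT. The Notch target Dtx1 was at 88.5 and 85.6 CPM with ethanol there, against 0 and 0.827 CPM in the edited-line controls. The ethanol libraries thus already held transcripts of these 2 targets. In the inhibitor experiment Hes1 had 0 to 4 counts in every library, DMSO included. In the BioNICD1 experiment depleted Biocontrol replicate 3 and depleted BioNICD1 replicate 1 stood apart from the other libraries of their groups. Their pairwise chi-square per gene was 23.1 to 52.6, against 5.07 and 9.56 between the other libraries of those groups. Replicate 3 of each KYOT2 group also stood apart (13.3 to 26.2, against 1.94 to 6.64 between replicates 1 and 2), and no member was called in that experiment with or without any 1 library. T cell markers summed to 650.3 to 1727 CPM in every group, while the B cell marker Ms4a1 had no counts. The highest B cell sum, 274.9 CPM at 24 h of 4-OHT, was nearly all Cd22 (274.8 CPM, against 40.6 CPM with ethanol), and Cd22 was at 203 CPM with BioNICD1 in control cells. The sums of myeloid markers (10.8 to 86.7 CPM), erythroid markers (0.0376 to 12.0 CPM) and fibroblast markers (0 to 0.972 CPM) were low. The part of these markers in the results was not tested.

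The sequences before the transcription starts of Mxd1 and Mxd4 are shown because Mxd1 gave the largest change of any member with BioNICD1 and Mxd4 the largest with NICD1-ER. They are from RefSeq (GRCm38.p6, mouse), 5' to 3' on the gene's own strand, and stop where the outermost annotated transcript of the gene begins. Capitals mark the E-box CACGTG, to which MYC-MAX and MXD-MAX dimers bind.
Mxd4, chr5:34187711-34187960, minus strand, 250 bases: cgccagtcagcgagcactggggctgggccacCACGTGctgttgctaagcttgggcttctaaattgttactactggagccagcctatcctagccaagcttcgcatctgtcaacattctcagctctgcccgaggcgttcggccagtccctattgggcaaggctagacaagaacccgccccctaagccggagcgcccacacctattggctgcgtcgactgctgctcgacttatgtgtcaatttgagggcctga
Mxd1, chr6:86669235-86669409, minus strand, 175 bases: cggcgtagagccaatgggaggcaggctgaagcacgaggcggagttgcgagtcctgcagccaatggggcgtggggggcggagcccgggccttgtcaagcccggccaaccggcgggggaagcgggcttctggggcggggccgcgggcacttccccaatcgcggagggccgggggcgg
The E-box CACGTG and the RBPJ core TGGGAA were searched on both strands in the 250 bases before each annotated start. On the other strand the RBPJ core reads TTCCCA, and it can share 2 letters with an E-box, but no member window held both motifs. Windows were found for 9 members, 11 in all, with 3 for Mxi1. The Myc start is not among them. The E-box was in the windows of Mxd4 (219 bases before the start), Mnt (123 bases) and Mlx (40 bases), and 6.02% of the 32851 mouse windows hold it. The RBPJ core was in the window of Mxd3 (92 bases before the start) and in 2 of the Mxi1 windows (206 and 28 bases), and 21.6% of all windows hold it. Neither motif was in the windows of Mxd1, Max, Mlxip or Mycn.

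Across 17 comparisons most calls fell on Myc and the MXD repressors. A gene is called here where edgeR's quasi-likelihood test, adjusted by Benjamini-Hochberg over all genes tested, gave an adjusted p under 0.05. Of 153 tests of members, 35 were called. The 4 MXD genes had 22 calls in 68 tests, Myc 7 in 17, Max 3 in 17, Mnt 2 in 17, Mlxip 1 in 17 and Mlx 0 in 17. Of the 35 calls 21 came from the BioNICD1 experiment, where 4.14 to 42.0% of all genes were called per comparison. Over the 17 comparisons this share ran from 0.0897 to 42.0%, and no pooled share was made to set beside the pooled counts. Several comparisons share libraries, so these counts are not independent of each other. The edited lines gave 0 called members of 9 tested, both together (9.89% of all genes tested were called), for line 2-12 alone (6.96%), for line 2-14 alone (5.05%) and between the lines (0.484%). Replicate numbers pair the edited-line libraries, as given below, and a fit with the number as a block called Mlx and Mxi1 for both lines. It called Mxi1 for line 2-14, where 3243 of 11566 genes were called, against 4260 for both lines. The KYOT2 experiment gave 0 of 9, for wild type against GFP (0.888% of all genes), WWAA against GFP (0.0897%) and wild type against WWAA (1.87%). NICD1-ER gave 2 called members at 4 h (6.25% of all genes), 3 at 8 h (10.4%), 3 at 24 h (10.8%) and 2 between 24 h and 4 h (13.4%). The inhibitor gave 4 of 9, against 20.7% of all genes. BioNICD1 gave 5 of 9 in control cells, against 32.9%, and 1 of 9 in depleted cells, against 4.14%. Depletion gave 5 of 9 in Biocontrol cells, against 42.0%, and 6 of 9 in BioNICD1 cells, against 39.8%. The interaction of BioNICD1 and depletion gave 4 of 9, against 22.5%. A call is common among all genes in that experiment, so the members' counts there are given with no more read from them than the values below.

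**Figure D1:**
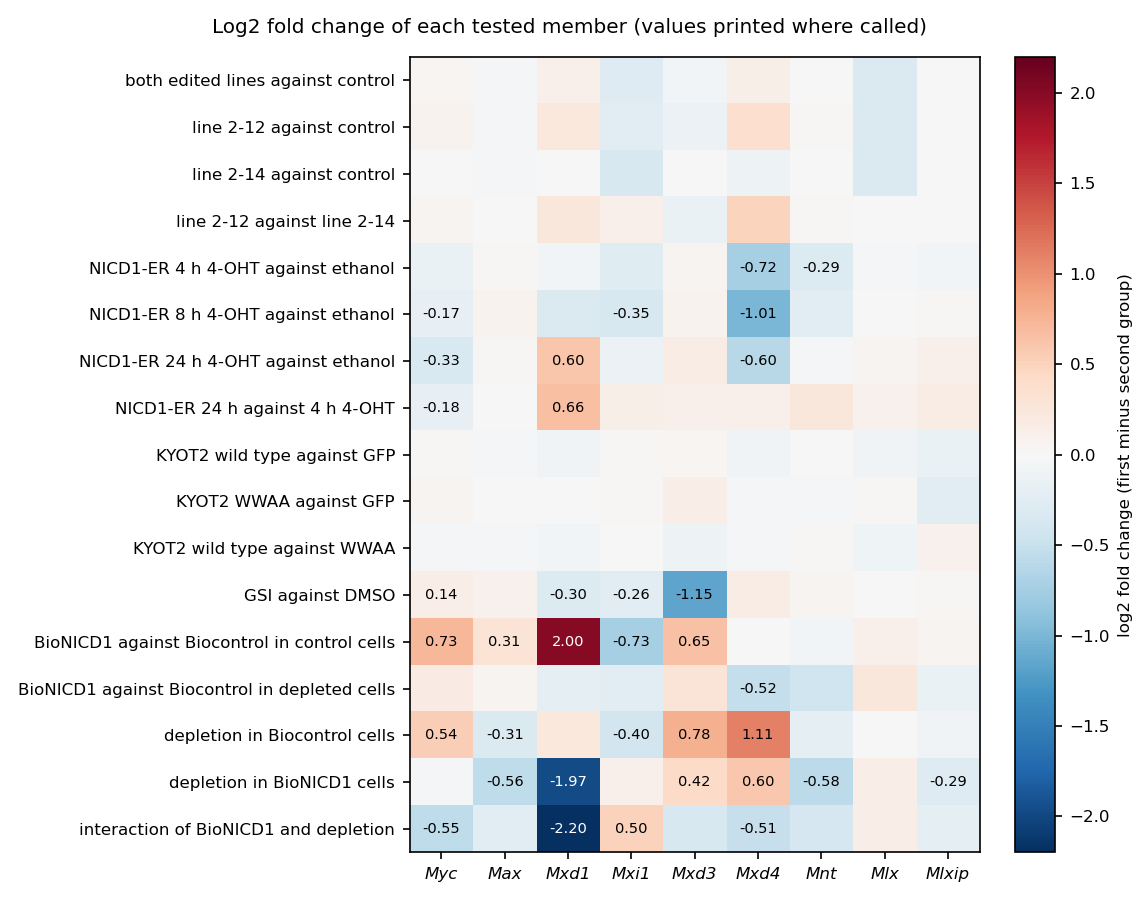
Log2 fold change (colour) of the 9 tested members (columns) in the 17 comparisons (rows), first group minus second, with the value printed where the gene was called. All fits shown are without a replicate block. Printed values are absent in the edited lines and KYOT2 rows and reach 2.00 and -2.20 for Mxd1 in the BioNICD1 experiment.

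Myc, the activator at the centre of the network, was highest with BioNICD1. In control cells with Biocontrol its level was 168, 159.4 and 162 CPM (163 ± 4.24, SD, n = 3). With BioNICD1 it was 257, 294 and 262 CPM (271 ± 19.9, SD, n = 3), and the groups did not overlap. The rise was 1.66-fold (log2 0.73, SE 0.108, adjusted p = 0.000235). Since these are bulk samples, more cells with the transcript and more transcript per cell cannot be told apart, here and below. Depletion of RBPJ without BioNICD1 also raised Myc, to 239, 266 and 205 CPM (log2 0.54, SE 0.108, adjusted p = 0.00177). The lowest of these 3 was depleted replicate 3, and without both libraries that stand apart the rise was 0.63 (adjusted p = 1.03e-05). Adding BioNICD1 to depleted cells gave 246, 269 and 287 CPM, which overlapped the depleted Biocontrol libraries (log2 0.18, 95% interval -0.06 to 0.41, adjusted p = 0.362). Depletion in cells with BioNICD1 likewise gave no call for Myc (log2 -0.02, 95% interval -0.25 to 0.21, adjusted p = 0.906). The BioNICD1 effect on Myc thus differed between the backgrounds (interaction log2 -0.55, SE 0.152, adjusted p = 0.0222). That call was kept in 8 of 12 fits with 1 library left out (adjusted p 0.00497 to 0.0640). It was lost without depleted Biocontrol replicate 1 or 2, control Biocontrol replicate 2 or control BioNICD1 replicate 2.

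Activation of NICD1-ER was accompanied by a lower, not a higher, Myc level. Ethanol libraries held 204 and 184 CPM and the 24 h 4-OHT libraries 149 and 159.8 CPM (194 ± 13.7 against 154 ± 7.83, SD, n = 2 each), without overlap. The fall was 1.26-fold at 24 h (log2 -0.33, SE 0.0570, adjusted p = 0.000732), kept with each of the 8 samples left out in turn. At 8 h Myc was at 173 and 169 CPM (log2 -0.17, adjusted p = 0.0467), a call that DESeq2 did not make (adjusted p = 0.387). Leaving out either 8 h sample, either 24 h sample or ethanol replicate 2 ended it (adjusted p 0.0166 to 0.336 over 8 such fits). At 4 h it was at 175 and 173 CPM and not called (log2 -0.15, adjusted p = 0.120). The level at 24 h was below that at 4 h (log2 -0.18, SE 0.0545, adjusted p = 0.0406), a call that DESeq2 did not make (adjusted p = 0.410). Leaving out either 24 h sample, either 8 h sample or the summed 4 h sample of replicates 1 and 2 ended it (adjusted p 0.0183 to 0.390). The 3 times share the ethanol libraries. No ethanol was taken at 4 or 8 h, so 4-OHT and time in culture cannot be told apart there, for Myc and for the genes below.

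The inhibitor raised Myc slightly, from 168 and 161 CPM to 182 and 180.3 CPM (log2 0.14, SE 0.0464, adjusted p = 0.0300). Leaving out either inhibitor library or DMSO replicate 2 ended this call (adjusted p 0.0162 to 0.240), and DESeq2 gave an adjusted p of 0.515. In the edited lines Myc ran from 156 to 188 CPM, and the control libraries, at 169 and 160.4 CPM, lay inside that range (log2 0.047 for both lines, 95% interval -0.22 to 0.31, adjusted p = 0.806). In the KYOT2 experiment the 9 libraries held 142 to 159.7 CPM, and the groups overlapped (log2 0.025 for wild type and 0.066 for WWAA against GFP, adjusted p = 0.907 and 0.769).

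Ordered over the 16 groups of the 5 experiments, Myc ran from 148 CPM (KYOT2 experiment, GFP) to 271 CPM (BioNICD1 in control cells). The groups up to 174 CPM at 4 h of 4-OHT each overlapped their next neighbour in range. By mean the inhibitor (181 CPM) and ethanol (194 CPM) groups came next, neither overlapping its neighbours in the order. Line 2-12, lower by mean, had 1 library at 188 CPM, above both inhibitor libraries and the lower ethanol library. The 3 highest groups, all from the BioNICD1 experiment, overlapped each other at 236, 267 and 271 CPM. Each experiment was normalised alone, so this order across experiments is a description without a test. Mycn, the relative of Myc known from neural and early tissues, had its 2 counts in replicate 2 of line 2-14 (0.327 CPM), below the detection limit of 3 counts.

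**Figure D2:**
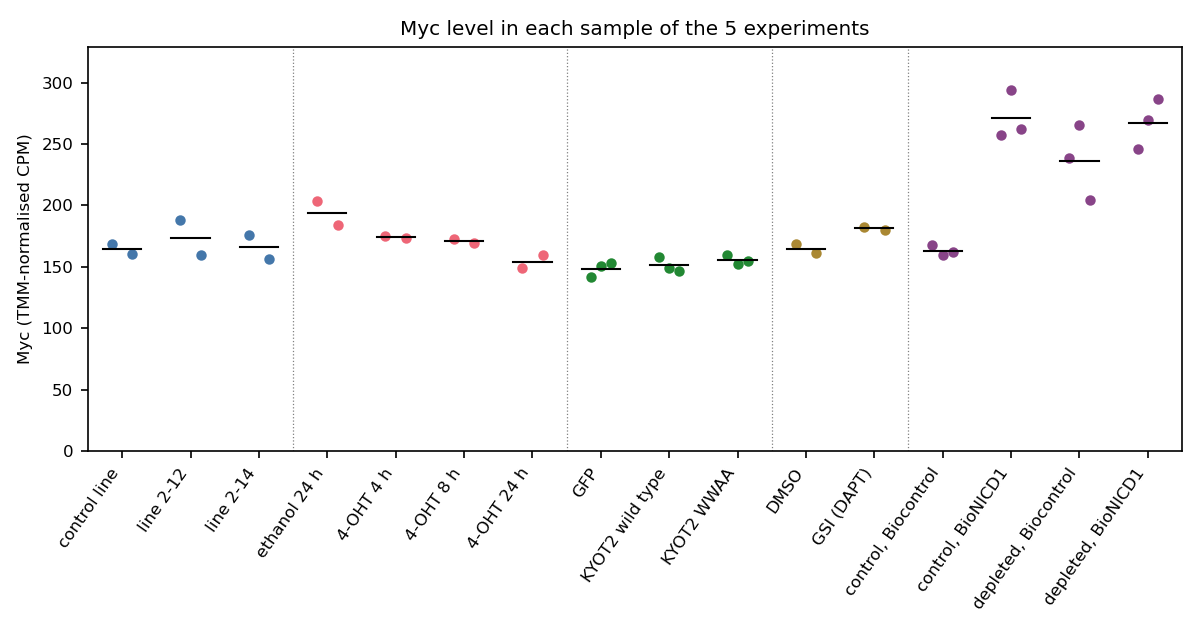
Myc level (TMM-normalised CPM, vertical axis from 0) in each of 39 samples (points) of 16 groups, with bars at the group means and dotted lines between experiments. The BioNICD1 group in control cells and both depleted groups of that experiment sit at or above 205 CPM, and the other groups at or below 204 CPM.

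Max, the obligate partner of MYC and of the MXD proteins, was called in 3 comparisons, all of the BioNICD1 experiment. In control cells it rose from 159.5, 159.8 and 157 CPM to 197, 204 and 189 CPM with BioNICD1 (1.24-fold, log2 0.31, SE 0.0841, adjusted p = 0.0142). The call was lost without control Biocontrol replicate 2 or 3 or control BioNICD1 replicate 2 (adjusted p 0.00652 to 0.0586 over 12 fits). Depleted libraries were lower: with Biocontrol they held 130.2, 126 and 127 CPM (log2 -0.31, SE 0.0845, adjusted p = 0.0102). With BioNICD1 they held 122, 130.3 and 148 CPM, against the control cells' 197, 204 and 189 (1.47-fold lower, log2 -0.56, SE 0.0844, adjusted p = 0.000224). All depleted libraries were thus below all control libraries for Max. The interaction was not called (log2 -0.25, 95% interval -0.50 to 0.01, adjusted p = 0.145). Elsewhere Max stayed within 78.1 to 90.3 CPM in the edited-line experiment, 99.4 to 108 CPM with NICD1-ER, 64.2 to 70.5 CPM with KYOT2 and 87.1 to 98.8 CPM with the inhibitor, with no call.

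Mxd1, a repressor that rises as many cell types differentiate, gave the largest change of any member. In control cells with Biocontrol it was at 17.7, 18.4 and 16.2 CPM. BioNICD1 took it to 66.5, 70.3 and 72.8 CPM, a 4.00-fold rise without overlap (log2 2.00, SE 0.121, adjusted p = 7.78e-08). In depleted cells it was at 19.3, 22.7 and 19.3 CPM with Biocontrol and at 14.5, 19.2 and 19.7 CPM with BioNICD1. The last 2 groups overlapped (log2 -0.20, 95% interval -0.47 to 0.07, adjusted p = 0.374). The high level was thus seen in the BioNICD1 control-cell libraries and in no depleted library (interaction log2 -2.20, SE 0.172, adjusted p = 2.71e-06). Without both libraries that stand apart the interaction was -2.11 (adjusted p = 1.88e-08). Depletion in BioNICD1 cells lowered Mxd1 3.92-fold (log2 -1.97, SE 0.120, adjusted p = 7.12e-08), from the same BioNICD1 libraries.

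With NICD1-ER the rise of Mxd1 came late. Ethanol libraries held 40.7 and 42.1 CPM, those at 4 h 41.9 and 36.1 CPM, those at 8 h 31.5 and 36.2 CPM, and those at 24 h 67.1 and 58.4 CPM. The 24 h samples were above all others (1.52-fold over ethanol, log2 0.60, SE 0.103, adjusted p = 0.000657; log2 0.66 over 4 h, SE 0.0941, adjusted p = 0.000137). At 8 h the level lay below ethanol without passing the test (log2 -0.32, SE 0.109, adjusted p = 0.0735). In the DMSO libraries of the inhibitor experiment Hes1 was near 0, as given above. Mxd1 was at 51.7 and 57.5 CPM with the inhibitor, against 64.5 and 69.5 CPM with DMSO (log2 -0.30, SE 0.0723, adjusted p = 0.00289). That call was lost without DMSO replicate 2 or inhibitor replicate 1 (adjusted p 0.00207 to 0.107 over 4 fits), and DESeq2 gave an adjusted p of 0.278. In the edited lines Mxd1 differed more between replicate numbers than between lines: replicate 1 held 71.8, 84.5 and 82.9 CPM in the control, 2-12 and 2-14, and replicate 2 held 51.5, 59.6 and 39.5 CPM. In the KYOT2 experiment it ran from 16.3 to 20.5 CPM with overlapping groups.

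**Figure D3:**
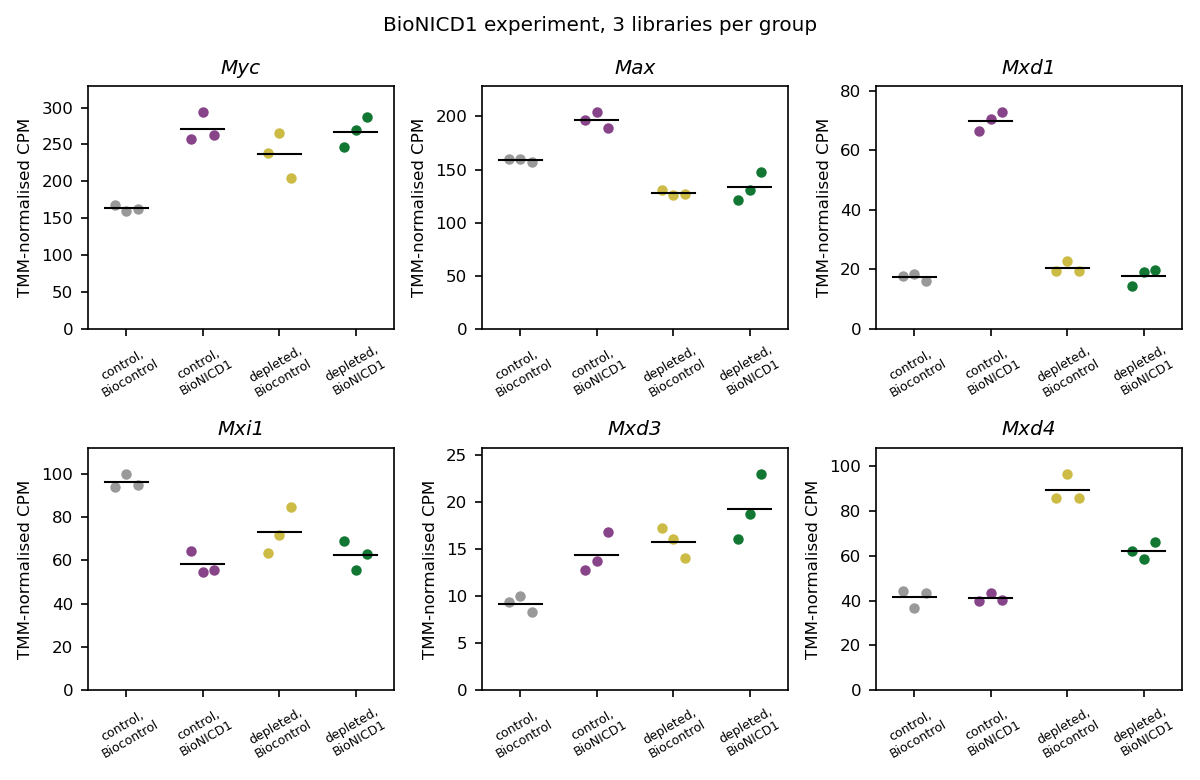
Levels (TMM-normalised CPM, vertical axes from 0) of 6 members in the 12 libraries of the BioNICD1 experiment (points), with bars at the means of the 4 groups. Mxd1 stands at 66.5 to 72.8 CPM in control cells with BioNICD1 and at 14.5 to 22.7 CPM in the other groups, while Mxd4 is highest in depleted cells.

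Mxd4, a repressor of the same family that can pair with MAX or MLX, fell with NICD1-ER and rose with depletion in the BioNICD1 experiment. With ethanol it was at 78.1 and 76.4 CPM in the NICD1-ER experiment. It was at 47.4 and 45.6 CPM at 4 h of 4-OHT, at 37.2 and 40.1 CPM at 8 h and at 49.9 and 51.6 CPM at 24 h, below ethanol in all 6 samples. The falls were 1.65-fold at 4 h (log2 -0.72, SE 0.0694, adjusted p = 4.54e-06), 2.02-fold at 8 h (log2 -1.01, SE 0.0721, adjusted p = 7.53e-08) and 1.52-fold at 24 h (log2 -0.60, SE 0.0744, adjusted p = 2.21e-05). Mxd4 was the one member called at all 3 times. These calls were kept in every alternative run, DESeq2 and each sample left out included. The levels at 24 h and 4 h did not differ past the threshold (log2 0.12, 95% interval -0.04 to 0.28, adjusted p = 0.392).

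In the BioNICD1 experiment Mxd4 followed depletion. Control cells held 44.1, 36.8 and 43.5 CPM with Biocontrol and 39.7, 43.5 and 40.2 CPM with BioNICD1 (log2 -0.01, 95% interval -0.22 to 0.20, adjusted p = 0.939). Depleted cells held 85.6, 96.7 and 85.9 CPM with Biocontrol, a 2.16-fold rise over control cells (log2 1.11, SE 0.0955, adjusted p = 2.22e-06). BioNICD1 lowered it in these depleted cells, to 62.3, 58.5 and 66.0 CPM (log2 -0.52, SE 0.0934, adjusted p = 0.00867), which was still above the control cells (log2 0.60, SE 0.0951, adjusted p = 0.000339). The fall in depleted cells was not called when those 2 groups were fitted alone (adjusted p = 0.126). The interaction was -0.51 (SE 0.134, adjusted p = 0.0183), and that call was lost without replicate 2 of control Biocontrol or of control BioNICD1 (adjusted p 0.0125 to 0.0565 over 12 fits). In the separate edited-line experiment Mxd4 was not called. Both line 2-12 libraries lay above both controls, and line 2-14 overlapped the controls. Controls held 64.6 and 74.4 CPM, line 2-12 held 99.8 and 80.3 CPM and line 2-14 held 74.3 and 54.9 CPM (both lines log2 0.12, 95% interval -0.29 to 0.53, adjusted p = 0.661). Mxd4 with the inhibitor was at 92.8 and 103 CPM against 93.6 and 81.3 CPM with DMSO and not called (log2 0.17, adjusted p = 0.0607).

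**Figure D4:**
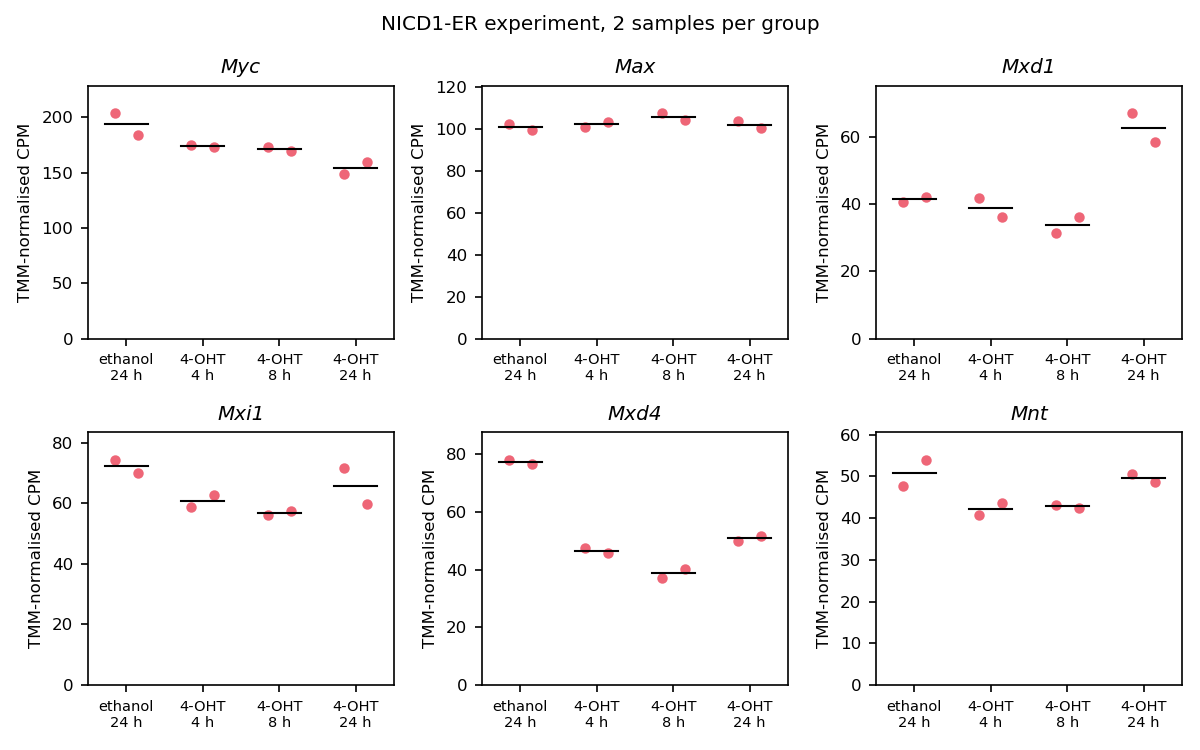
Levels (TMM-normalised CPM, vertical axes from 0) of 6 members in the NICD1-ER experiment, 2 samples per group (points) with bars at the group means. Mxd4 is below ethanol at 4, 8 and 24 h of 4-OHT, Mxd1 is above it at 24 h, and Max stays between 99.4 and 108 CPM.

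Mxi1 (MAX interactor), an MXD-family repressor of MYC targets, was called in 5 comparisons, 4 of them downward. In control cells BioNICD1 lowered it from 94.1, 100.2 and 94.7 CPM to 64.2, 54.9 and 55.6 CPM (1.66-fold, log2 -0.73, SE 0.117, adjusted p = 0.000455). Depletion with Biocontrol lowered it as well, to 63.3, 71.6 and 84.7 CPM (log2 -0.40, SE 0.116, adjusted p = 0.0159), a call lost without depleted Biocontrol replicate 1 or control Biocontrol replicate 2 (adjusted p 0.00359 to 0.0773 over 12 fits). Depleted cells with BioNICD1 held 69.2, 55.5 and 63.0 CPM. BioNICD1 was thus not called in depleted cells (log2 -0.23, 95% interval -0.48 to 0.03, adjusted p = 0.296). The interaction, 0.50 (SE 0.165, adjusted p = 0.0469), was kept only where the library left out was depleted Biocontrol replicate 3, depleted BioNICD1 replicate 2 or control BioNICD1 replicate 1 (adjusted p 0.00975 to 0.115 over 12 fits).

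In the NICD1-ER experiment Mxi1 was at 74.4 and 69.9 CPM with ethanol and at 56.1 and 57.4 CPM at 8 h (log2 -0.35, SE 0.0798, adjusted p = 0.00921). That call was lost without the summed 8 h sample or ethanol replicate 2 (adjusted p 0.00254 to 0.0810 over 8 fits), and DESeq2 gave an adjusted p of 0.123. At 4 h its 58.7 and 62.8 CPM missed the threshold (adjusted p = 0.0678), and at 24 h its 71.6 and 59.9 CPM overlapped ethanol. The inhibitor lowered Mxi1 from 135 and 129 CPM to 110.5 and 110.3 CPM (log2 -0.26, SE 0.0513, adjusted p = 0.000373). DESeq2 gave an adjusted p of 0.117. The edited lines held 136 and 108 CPM (2-12) and 133 and 93.8 CPM (2-14), against 178 and 112 CPM in the controls. Within each replicate number both lines were below their control. Without regard to number the test gave log2 -0.29 (SE 0.226, adjusted p = 0.414). With the replicate number as a block it gave -0.28 (adjusted p = 0.0356) for both lines and -0.34 (adjusted p = 0.0364) for line 2-14.

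Mxd3, an MXD repressor known for its expression in dividing cells, fell most with the inhibitor. DMSO libraries held 82.6 and 76.2 CPM and inhibitor libraries 31.9 and 39.0 CPM. The fall was 2.22-fold (log2 -1.15, SE 0.0812, adjusted p = 1.93e-12) and was called in every alternative run. The 2 inhibitor libraries differed by less than the sampling noise (chi-square per gene 0.766), and no run added them up as 1 sample. The errors may thus understate the spread, here and for the other genes with the inhibitor. Hes1 was near 0 in these DMSO libraries, as given above. In the BioNICD1 experiment Mxd3 was low, at 9.38, 10.01 and 8.28 CPM in control cells with Biocontrol. BioNICD1 raised it to 12.7, 13.7 and 16.8 CPM (1.56-fold, log2 0.65, SE 0.165, adjusted p = 0.00989). Depletion raised it to 17.2, 16.0 and 14.1 CPM (1.71-fold, log2 0.78, SE 0.164, adjusted p = 0.00245). With both it was at 16.1, 18.7 and 23.0 CPM. Against the control cells with BioNICD1 this was log2 0.42 (SE 0.154, adjusted p = 0.0474), with overlapping groups. That call was kept only where the library left out was replicate 3 of control Biocontrol, control BioNICD1 or depleted Biocontrol, or depleted BioNICD1 replicate 1 (adjusted p 0.0155 to 0.184 over 12 fits). In the other experiments Mxd3 ran from 50.3 to 85.6 CPM outside the inhibitor libraries, with no call. Its 3 comparisons at 4, 8 and 24 h of 4-OHT gave log2 0.059, 0.082 and 0.16 (adjusted p = 0.725, 0.540 and 0.228).

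Mnt, the broadly expressed MAX-binding repressor that opposes MYC in resting and dividing cells, was called in 2 comparisons. Depleted cells with BioNICD1 held 41.9, 52.3 and 48.1 CPM, against 65.7, 79.3 and 68.3 CPM in control cells with BioNICD1 (log2 -0.58, SE 0.128, adjusted p = 0.00319). Depleted cells with Biocontrol held 67.0, 72.7 and 52.6 CPM, where replicate 3 is one of the libraries that stand apart. BioNICD1 in depleted cells was not called for Mnt with all libraries (log2 -0.44, adjusted p = 0.0802) and was called without both of those (log2 -0.48, adjusted p = 0.00853). At 4 h of 4-OHT Mnt was at 40.6 and 43.5 CPM, against 47.6 and 54.0 CPM with ethanol (log2 -0.29, SE 0.0839, adjusted p = 0.0479). Leaving out ethanol replicate 3, the summed 4 h sample, either 24 h sample or 8 h replicate 3 ended the call (adjusted p 0.0390 to 0.395 over 8 fits), and DESeq2 gave an adjusted p of 0.655.

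The MLX arm had 1 call in all, that of Mlxip. Mlxip, the glucose sensor MondoA, fell in depleted cells with BioNICD1, from 99.4, 97.7 and 99.1 CPM in control cells to 75.2, 84.2 and 83.5 CPM (log2 -0.29, SE 0.0808, adjusted p = 0.0141). The call was lost without depleted BioNICD1 replicate 1, one of the libraries that stand apart (adjusted p 0.00976 to 0.0525 over 12 fits). Mlxip was not called in the other 16 comparisons. Mlx, the partner of MLXIP, was not called in any of the 17. In the edited-line experiment its control libraries lay above those of both lines, with 99.2 and 89.5 CPM in the controls, 72.1 and 78.9 CPM in line 2-12 and 71.4 and 79.1 CPM in line 2-14. The difference was log2 -0.32 for both lines (SE 0.115, 95% interval -0.59 to -0.045, adjusted p = 0.1247). With the replicate number as a block it was -0.30 (adjusted p = 0.0301). In the BioNICD1 experiment Mlx varied within groups, most in depleted cells with BioNICD1 (44.3 to 74.0 CPM), where the highest value was that of replicate 1, which stands apart.

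**Figure D5:**
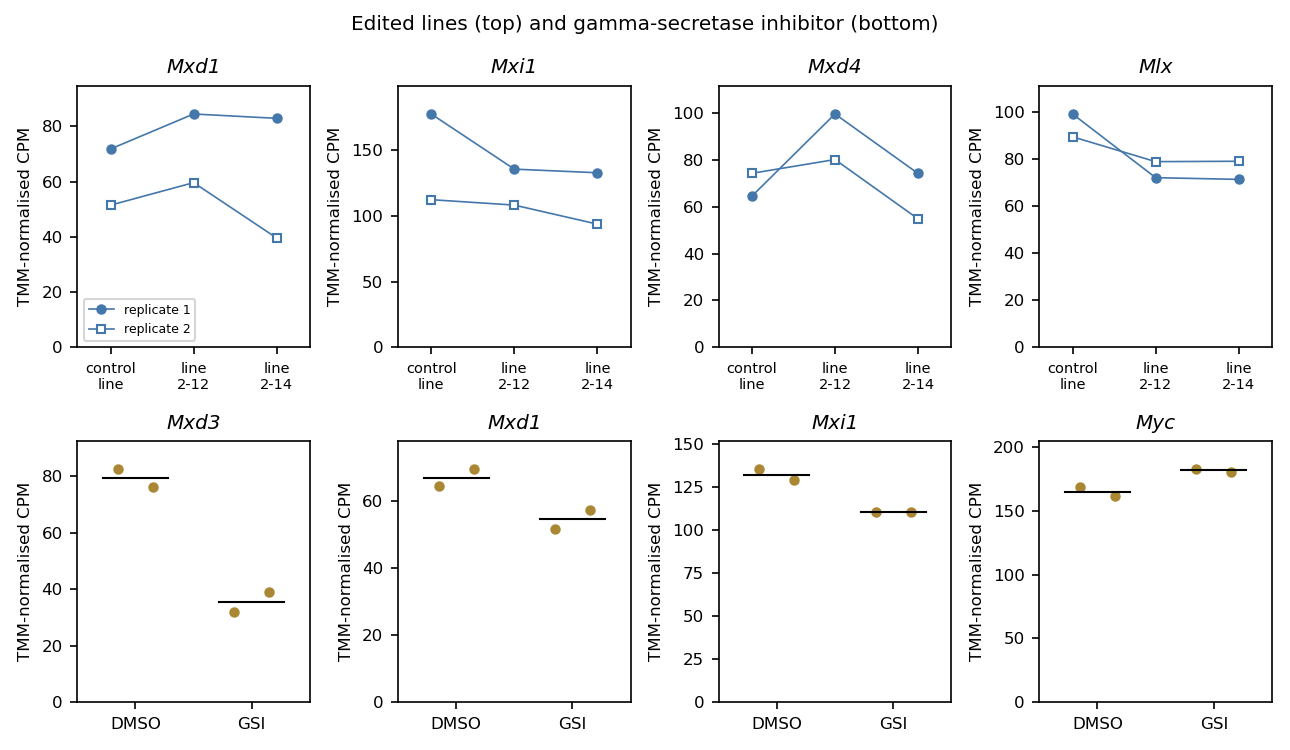
Levels (TMM-normalised CPM, vertical axes from 0) of 4 members in the edited-line experiment (top, lines join libraries with the same replicate number) and of 4 members in the inhibitor experiment (bottom, points are libraries and bars are means). Replicate 2 lies below replicate 1 for Mxd1 and Mxi1 in all 3 lines, Mlx is lower in both edited lines than in the control, and Mxd3 falls from 76.2 to 82.6 CPM with DMSO to 31.9 to 39.0 CPM with the inhibitor.

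For both edited lines edgeR called 0 members, 1 had an unadjusted p under 0.05 (Mlx) and DESeq2 called 0. For line 2-12 these counts were 0, 0 and 0, for line 2-14 they were 0, 1 and 0, and between the lines 0, 1 and 0. The replicate numbers pair the libraries of this experiment, and a fit with the number as a block called 2 members for both lines (Mlx and Mxi1) and 1 for line 2-14 (Mxi1), while the count over all genes rose from 1144 to 4260 for both lines. In the KYOT2 experiment edgeR and DESeq2 called 0 members in each comparison. Unadjusted p was under 0.05 for 0 members with wild type against GFP, for 2 with WWAA against GFP (Mxd3, log2 0.15, and Mlxip, log2 -0.24) and for 0 between wild type and WWAA. Mxd3 with WWAA was at 58.7 to 59.8 CPM against 50.3 to 57.5 CPM with GFP, and Mlxip at 38.9 to 41.6 against 44.1 to 54.3 CPM.

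Of the other genes of the network, Mga, a large protein with its own MAX-binding domain, was tested in every experiment. It fell with the inhibitor from 207 to 176 CPM on average (log2 -0.24, SE 0.0473, adjusted p = 0.000336), a call that DESeq2 did not make (adjusted p = 0.0612). It also fell with depletion in Biocontrol cells from 121 to 91.6 CPM (log2 -0.40, SE 0.150, adjusted p = 0.0472). Mga was not called in the remaining 15 comparisons. Mycl had 0 to 12 counts and Mlxipl 0 to 2 counts per sample, too few for a test.

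The 2 classical targets of MLX-MLXIP dimers, Txnip and Arrdc4, are arrestin-domain genes that limit glucose uptake. Arrdc4 had 108 and 259 counts in the edited-line controls and 0, 0, 0 and 2 in lines 2-12 and 2-14 (adjusted p = 0.000379 for both lines). It had 128 to 159 counts in the 6 control libraries of the BioNICD1 experiment and 0 to 1 in the 6 depleted ones (adjusted p = 4.77e-08 in Biocontrol cells). Txnip in the edited-line experiment was at 538 CPM in the control, 396 in line 2-12 and 409.6 in line 2-14 for replicate 1, and at 404, 294 and 289.5 CPM for replicate 2. Both lines were thus below the control of the same number in each pair. Without regard to number Txnip was not called (log2 -0.44, adjusted p = 0.197), and with the replicate number as a block it was (log2 -0.44, SE 0.0729, adjusted p = 0.00209). Depletion in Biocontrol cells raised Txnip (401 against 300.4 CPM, log2 0.42, SE 0.0897, adjusted p = 0.00276) and so did BioNICD1 in control cells (391 CPM, log2 0.38, SE 0.0897, adjusted p = 0.00617). With NICD1-ER Txnip fell at 4 h (log2 -0.27, SE 0.0490, adjusted p = 0.00275) and 8 h (log2 -0.37, SE 0.0492, adjusted p = 8.41e-05), and Arrdc4 fell at 8 h (log2 -0.44, SE 0.0972, adjusted p = 0.00754), a call that DESeq2 did not make (adjusted p = 0.0802). With KYOT2 Txnip was lower for wild type (2855 CPM) and WWAA (2762 CPM) than for GFP (3396 CPM), with adjusted p = 0.00827 and 0.00762. Those levels, 2708 to 3499 CPM over the KYOT2 libraries, compare with 289.5 to 538 CPM in the other experiments, a difference between experiments that was not tested. The KYOT2 libraries also differed from the others in their share of Rn45s, as given above.

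The 33 genes of a list of known MYC-induced genes were all tested. With BioNICD1 in control cells 14 were called, 13 upward, where 32.9% of all genes were called, with a list median of log2 0.16 against 0.013 for all genes tested. The largest were Cdc25a, a phosphatase of the cell cycle (41.1 to 77.5 CPM, log2 0.91, adjusted p = 4.59e-05), Ppat, an enzyme of purine synthesis (log2 0.68), the transferrin receptor Tfrc (log2 0.65) and Ccnd2, a D-type cyclin (295 to 460 CPM, log2 0.64). Their adjusted p-values were 8.92e-05, 0.00152 and 0.000184. With BioNICD1 in depleted cells edgeR called 0 of 33, 13 had an unadjusted p under 0.05 and DESeq2 called 3 (list median log2 0.24 against -0.0057). Depletion in Biocontrol cells gave 12 called, all upward (median 0.30 against 0.023), a smaller share than the 42.0% of all genes. They were led by Cad, a pyrimidine synthesis enzyme (117 to 233 CPM, log2 0.99, adjusted p = 0.000397). Depletion in BioNICD1 cells, where Myc was not called (log2 -0.02), gave 14 called, 12 of them upward (median 0.23 against -0.0035), with 39.8% of all genes called. Both edited lines of the other experiment gave 0 of 33 in edgeR and in DESeq2, with 7 at an unadjusted p under 0.05 (median -0.17 against -0.0045). With the replicate number as a block, 8 fell and 2 rose, where 4260 of 11566 genes were called.

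At 24 h of NICD1-ER 6 of the 33 were called, all downward (median -0.11 against -0.0058), with 10.8% of all genes called. They included Odc1, the polyamine enzyme (129 to 103 CPM, log2 -0.32, SE 0.0633, adjusted p = 0.00227), Polr1b, a subunit of RNA polymerase I (log2 -0.30, adjusted p = 0.000574), and Srm, spermidine synthase (log2 -0.27, adjusted p = 0.00809, not called by DESeq2). At 4 h 2 were called and at 8 h 3, near the shares of all genes (6.25% and 10.4%). Between 24 h and 4 h 13 were called, 12 of them downward (median -0.13), with 13.4% of all genes called. DESeq2 called 2 at 24 h and 4 between 24 h and 4 h. The inhibitor gave 10 called, 5 in each direction, with 20.7% of all genes called, and DESeq2 called 3.

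Of 5 MYC-repressed genes, BioNICD1 in control cells lowered 3, the stress gene Gadd45a (91.7 to 33.6 CPM, log2 -1.45, SE 0.114, adjusted p = 9.63e-07), Ndrg1 (log2 -0.97) and the cyclin-dependent kinase inhibitor Cdkn1b (log2 -0.81), and the list median was -0.81. BioNICD1 in depleted cells lowered 2 (Gadd45a, log2 -0.49, and Ndrg1, log2 -0.49). Depletion lowered 3 and raised 1 in Biocontrol cells, and lowered 2 and raised 1 in BioNICD1 cells. The interaction was called for 2, both upward. Shares of all genes called were 32.9% and 4.14% for BioNICD1 in control and depleted cells. They were 42.0% and 39.8% for depletion in Biocontrol and BioNICD1 cells, and 22.5% for the interaction. In the NICD1-ER experiment Ndrg1 (log2 -0.72 at 4 h and -0.71 at 8 h) and Cdkn1b (log2 -0.26 and -0.31) were below 24 h ethanol. No ethanol was taken at 4 or 8 h, so 4-OHT and time in culture cannot be told apart there. At 24 h of 4-OHT 1 was above ethanol, Gadd45a (log2 0.56), and between 24 h and 4 h 4 were higher and 0 lower. DESeq2 called 1 at 4 h, 1 at 8 h, 1 at 24 h and 2 between 24 h and 4 h. Of all genes 6.25% were called at 4 h, 10.4% at 8 h, 10.8% at 24 h and 13.4% between 24 h and 4 h. The inhibitor raised 1 and lowered 1 (20.7% of all genes called), as did KYOT2 wild type against WWAA (1.87%). DESeq2 called 1 with the inhibitor and 2 for wild type against WWAA. None was called against GFP in the KYOT2 experiment (4 at an unadjusted p under 0.05 for wild type and 3 for WWAA, 0 with DESeq2). For both edited lines edgeR and DESeq2 called 0 of 5, with 1 at an unadjusted p under 0.05. The block called 2, both downward, where 4260 of 11566 genes were called.

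Among 20 genes for MYC cofactors and turnover, Pvt1 has the closest link, as the long non-coding RNA gene next to Myc. Pvt1 rose with BioNICD1 in control cells from 10.95 to 21.7 CPM (log2 0.99, SE 0.123, adjusted p = 5.62e-05) and with depletion in Biocontrol cells to 19.2 CPM (log2 0.81, SE 0.124, adjusted p = 0.000235). It fell at 24 h of 4-OHT from 75.1 to 61.6 CPM (log2 -0.29, SE 0.0671, adjusted p = 0.00923), a call that DESeq2 did not make (adjusted p = 0.236). The interaction for Pvt1 was -0.73 (SE 0.169, adjusted p = 0.00978). Skp2, part of a ubiquitin ligase that acts on MYC, rose with BioNICD1 in control cells (log2 0.83, SE 0.0819, adjusted p = 7.17e-06) and with depletion (log2 0.67, SE 0.0822, adjusted p = 4.07e-05) and fell with the inhibitor (log2 -0.45, SE 0.0570, adjusted p = 3.56e-07). The list of 20 had 3 called with BioNICD1 in control cells (32.9% of all genes), 6 with depletion in Biocontrol cells (42.0%) and 5 in BioNICD1 cells (39.8%). It had 3 in the interaction (22.5%), 3 with the inhibitor (20.7%, 1 with DESeq2), 1 at 8 h (10.4%) and 1 at 24 h of 4-OHT (10.8%). In each of these the share was smaller than that of all genes. With BioNICD1 in depleted cells 1 was called, near the 4.14% of all genes. For both edited lines edgeR and DESeq2 called 0 of 20, with 4 at an unadjusted p under 0.05. The block called 6, 4 upward and 2 downward, where 4260 of 11566 genes were called.

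Among 10408 genes that passed the filter in all experiments, those most like Myc included Dusp6, a phosphatase of the ERK pathway (Pearson r = 0.902), the tubulin gene Tuba4a (0.877), Hmga1 (0.865) and the immunoproteasome subunit Psmb8 (0.859). These r are over 39 samples, on log2 CPM centred within each experiment, and samples share groups and normalisation, so they are a description. The value for Hmga1 is uncertain, since the counting could have split its reads with similar sequences. Among the members r with Myc was 0.454 for Mxd3, 0.387 for Mxd1, 0.367 for Mxd4, 0.0992 for Max, -0.0398 for Mlx, -0.290 for Mnt, -0.296 for Mlxip and -0.588 for Mxi1.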

How the data were processed

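Gene expression was measured by RNA-seq, and the authors deposited raw counts of reads, 1 row for each gene symbol. Per the submitters' processing notes TopHat2 2.1.1, Picard and deepTools and the build mm9 were used, with roles, counter and annotation not given in the sources used here. The table has 65 columns; 41 could be tied to a sample by name, and the other 24 were left out. Deposited region lists were not used.

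At 4 h (chi-square per gene 0.907) and 8 h (0.835) of 4-OHT, replicates 1 and 2 differed by less than the sampling noise and were added up as 1 sample per time, so 39 samples entered the tests. The 24 h 4-OHT pair (0.928) and the inhibitor pair (0.766) were kept apart, and their errors may understate the spread. Separate fits were made for the 5 experiments with edgeR 4.0.16 (R 4.3.3; TMM, filterByExpr, 1 mean per group, two-sided quasi-likelihood tests, Benjamini-Hochberg over all genes tested, threshold 0.05). The script was tested on simulated data. Levels are TMM-normalised CPM. The SE of a log2 fold change is its size over the root of F. Intervals are 95% and floors cover counting error only. Levels were not compared between genes, since no lengths were used.

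Members and lists were chosen with earlier results of these data known. All members are named and each call of a member is reported, while comparisons without a call are given in part. Mga, Mycl, Mlxipl, Txnip and Arrdc4 are named whether called or not, with part of their comparisons. From other lists at most 4 called genes per comparison are named, by largest fold change, and the 5 genes most like Myc by r, of which 1 is not reported here. Members' counts of calls were recomputed with DESeq2 1.42.0, RLE factors, no filter, the compared groups alone, the replicate block, each sample left out and, chosen after seeing the data, without both depleted libraries that stand apart. Genes of the other lists were recomputed with DESeq2 and, in the edited-line experiment, with the replicate block, also chosen after seeing the data. In the edited-line experiment, residuals of same-numbered libraries had r of 0.433 to 0.608, in all 6 libraries best with their own number, so the numbers pair the samples there.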

Additional observations from a re-analysis of the deposited data

Results flagged for a closer look

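Effects of BioNICD1 that differed between control and depleted cells were found by the interaction test of edgeR for Myc (-0.55, adjusted p = 0.0222), Mxd1 (-2.20, adjusted p = 2.71e-06), Mxd4 (-0.51, adjusted p = 0.0183) and Mxi1 (0.50, adjusted p = 0.0469), on the log2 scale. Mxd1 had the largest of these, and Myc, Mxd4 and Mxi1 were called in 8, 10 and 3 of 12 fits with 1 library left out. For NICD1-ER the level at 24 h differed from that at 4 h for Myc (-0.18, adjusted p = 0.0406) and Mxd1 (0.66, adjusted p = 0.000137). No ethanol was taken at 4 h, so 4-OHT and time in culture cannot be told apart in these differences. Mxd1 was called in 8 of 8 fits with 1 sample left out and Myc in 3 of 8.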

How the results depend on the processing

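No member changed sign between 2 settings where either called it. RLE factors kept all 35 calls, the fits without a low-count filter 33, DESeq2 28, and leaving out 1 sample kept 297 of 348 calls. Counts of called members moved over 1.5 times in these settings. With DESeq2 the count was 1 at 4 h, 1 at 8 h and 1 at 24 h against 4 h of 4-OHT, 1 with the inhibitor and 2 for BioNICD1 in depleted cells. With the compared groups alone it was 1 at 4 h of 4-OHT and 0 for BioNICD1 in depleted cells, and without both libraries that stand apart it was 2 there. All 21 calls of the BioNICD1 experiment were kept without those libraries and 3 were gained. With each NICD1-ER library as its own sample the count was 5 at 8 h, and with the replicate block added it was 4 at 4 h and 4 at 24 h against 4 h. With the replicate block it was 2 for both edited lines and 1 for line 2-14; the block ended the calls of Mxd3 (depletion in BioNICD1 cells, adjusted p = 0.0595) and Mxi1 (interaction, adjusted p = 0.0575), and changed no other call outside the NICD1-ER experiment. Replicate numbers were taken to pair the samples in the edited-line experiment only. In the KYOT2 experiment same-numbered residuals correlated at 0.0349 to 0.408, and 8 of 9 libraries were best with their own number, which is a hint of pairing from the data. With the inhibitor r was 0.0268. In the NICD1-ER experiment same-numbered residuals correlated at -0.0112 to 0.169, and 6 of 10 libraries were best with their own number. In the BioNICD1 experiment they correlated at -0.449 to 0.549, and 7 of 12 libraries were best with their own number. Leaving out 1 sample gave 1 to 3 called members at 4 h, 1 to 5 at 8 h, 3 to 3 at 24 h and 1 to 3 at 24 h against 4 h, 2 to 5 with the inhibitor, 4 to 5 and 1 to 2 for BioNICD1 in control and depleted cells, 4 to 5 and 5 to 6 for depletion in Biocontrol and BioNICD1 cells, and 1 to 5 for the interaction. All of these fits gave 0 for the edited lines and for KYOT2. The interaction count was 1 without replicate 2 of control Biocontrol or control BioNICD1 and 2 without depleted Biocontrol replicate 1 or 2. The count for BioNICD1 in depleted cells was 2 without depleted Biocontrol replicate 3, and that for the inhibitor was 2 without DMSO replicate 2. At 4 h and at 24 h against 4 h it was 1 without the summed 4 h sample, either 24 h sample or 8 h replicate 3, and at 24 h against 4 h also without the summed 8 h sample. At 8 h it was 1 without the summed 8 h sample and 5 without the summed 4 h sample. The counts over all genes fell with DESeq2 from 738 to 230 at 4 h, 1225 to 429 at 8 h, 1276 to 617 at 24 h and 1584 to 481 at 24 h against 4 h, and from 2414 to 690 with the inhibitor, and for BioNICD1 in depleted cells they ran from 4 (groups alone) to 1285 (without both libraries that stand apart), against 469. For both edited lines, line 2-12, line 2-14 and between the lines, the counts 1144, 805, 584 and 56 became 4260, 3672, 3243 and 282 with the replicate block and 2671, 2126, 1870 and 302 without the filter. With the compared groups alone line 2-12 gave 486, and with DESeq2 the lines differed in 118 genes. In the KYOT2 experiment (wild type and WWAA against GFP, wild type against WWAA) the counts 99, 10 and 208 became 320, 67 and 567 with the block, 262, 66 and 395 without the filter and 161, 6 and 112 with the groups alone, and DESeq2 gave 21 for WWAA against GFP. For BioNICD1 in control cells 3723 became 5847 with the groups alone and 5882 without both libraries that stand apart, where the interaction went from 2548 to 4665. DESeq2 gave 766 for BioNICD1 in depleted cells, and 1223 genes were called at 4 h with each library as its own sample and a replicate block. The causes were not tested. The fit of the compared groups alone does not apply to both edited lines together or to the interaction. Scaling by library total instead of TMM moved 6 of 160 group means of members by over 1 SD, at most 1.06 times. Mycn is limited by depth: 3 counts in a library equal 0.211 to 1.26 CPM.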
